A study of Sus scrofa with 3 samples.

Results

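The genes examined here were 10 mRNA genes of the VEGF and angiopoietin systems of blood vessels, followed across IM, CM, and CMT pigs. They were chosen by name, with earlier results of these data known. They comprised the ligands VEGFA, VEGFB, VEGFC, ANGPT1 and ANGPT2, the receptors KDR, FLT1, TEK and TIE1, and PECAM1, an adhesion protein of the junctions between endothelial cells. All 10 had an entry among the 22826 mRNA genes measured in every library. Visceral adipose tissue was retroperitoneal fat of male Chinese Wuzhishan miniature pigs that were 6 to 7 months old when they entered the study.

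After 7 weeks of standard diet, IM pigs received skin incisions only and stayed intact, CM pigs were castrated, and CMT pigs were castrated and injected intramuscularly each week with testosterone propionate in corn oil at 10 mg per kg body weight. All 3 groups then ate a diet rich in fat and cholesterol (HFC) for 12 weeks, so no group on a normal diet entered the comparison. Whether IM and CM pigs received corn oil is not given in the sources used here. The comparison of CM with IM followed testosterone deficiency, that of CMT with CM its replacement, and that of CMT with IM the replaced against the intact state.

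Blood vessels grow and are kept open by secreted factors that act on receptors of the endothelial cells lining them. VEGF ligands drive the division, migration and permeability of these cells through the receptors KDR and FLT1, and adipocytes are a known source of VEGFA in fat. Angiopoietins act on the receptor TEK, where ANGPT1 is known to stabilise vessels and ANGPT2 to oppose it in many settings.

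Each group was 1 library, made from RNA of several pigs mixed in equal amounts, so no difference had a replicate check and no test of a condition was possible. The study's methods give 4 pigs per pool, whereas the labels give 4 to 6. Levels are in UQRPKM, reads per kilobase of gene scaled by the library's upper quartile. Being per length, they can be compared between genes as far as the lengths used match the transcripts. Whole reads could be recovered from the UQRPKM values and totalled 16611931, 15561124 and 15106608 for IM, CM, and CMT pigs. The lengths that went with the recovered reads ran from 575 bases for TIE1 and 582 for VEGFA to 6697 for FLT1. Whether they cover whole transcripts was not checked, so the place of VEGFA among the other genes is also uncertain. Comparisons of 1 gene between libraries do not depend on its length. Intervals given below are exact 95% intervals from these reads and cover counting error only, not differences between pigs or pools. The libraries also differed in transcripts of other tissues, because genes of a skeletal muscle list summed to 85.8, 74.7 and 6205 UQRPKM in IM, CM, and CMT pigs and genes of a liver list to 30.5, 8584 and 38.6 UQRPKM. TNNT3, CKM and MB of the muscle list were at 0 in all 3 libraries. In bulk tissue, fewer cells of a type and less RNA per cell cannot be told apart.

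**Figure D1:**
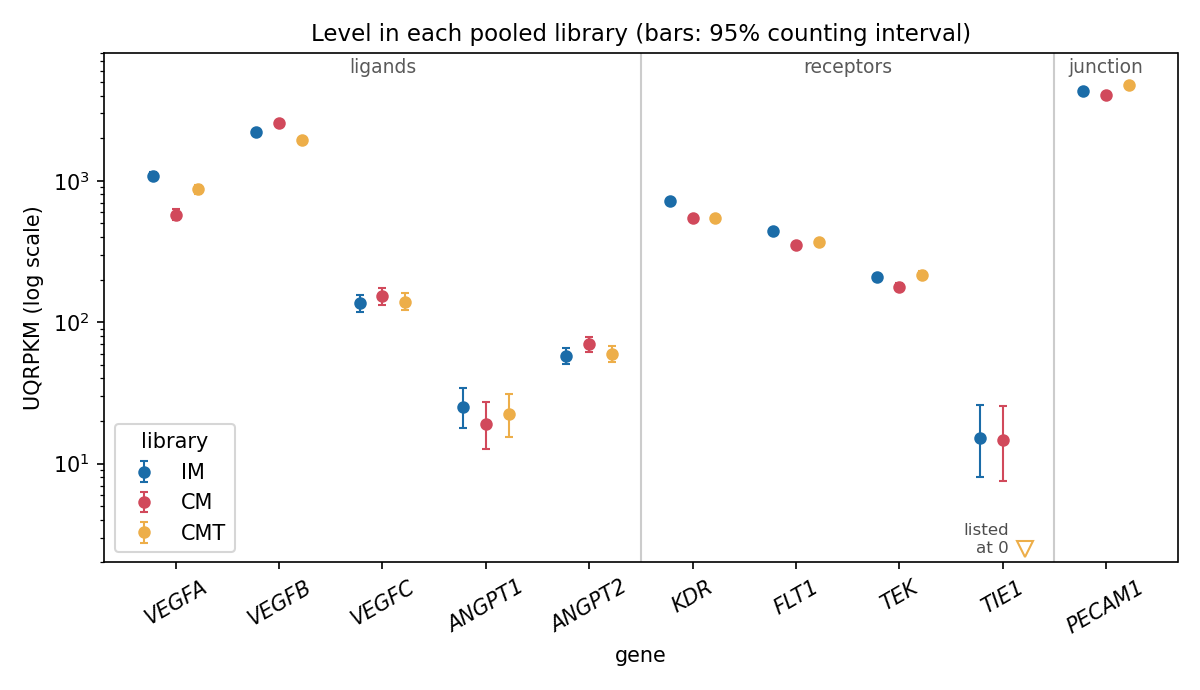
Level of each gene in UQRPKM (vertical axis, log scale) in the IM, CM and CMT libraries, with 1 point per pooled library and bars for the exact 95% counting interval. PECAM1 lay between 4038 and 4735 in all libraries, VEGFA was lowest in CM, and the open triangle on the lower edge marks TIE1, listed at 0 in CMT, with no value on the axis.

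The level of PECAM1 was the highest of the 10 genes in every library, at 4338, 4038 and 4735 UQRPKM in IM, CM, and CMT pigs. It exceeded 98.6%, 98.5% and 98.7% of the mRNA genes above 0 in the respective libraries. The other genes followed in the order VEGFB, VEGFA, KDR, FLT1, TEK, VEGFC, ANGPT2, ANGPT1 and TIE1, the same in IM, CM, and CMT pigs. Most neighbours in this order were separated by more than their counting intervals. The exceptions were ANGPT1 and TIE1 in IM and CM, and VEGFA and KDR as well as TEK and VEGFC in CM, whose intervals overlapped. Thus the angiopoietins stood at the low end of the ligands, and VEGFB rather than VEGFA stood at the top, in each library.

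Among the ligands, VEGFA, the principal VEGF for the growth of blood vessels, was measured at 1083 UQRPKM in IM pigs (939 reads), 576 in CM pigs (476 reads) and 867 in CMT pigs (737 reads). CM was the lowest of the 3 libraries and CMT lay between CM and IM, and none of the 3 intervals overlapped. For CM versus IM the log2 ratio was -0.91 (95% interval -1.07 to -0.75), a fold of 0.532. For CMT versus CM it was 0.59 (0.42 to 0.76), a fold of 1.51 that stood just past the threshold of 1.5. Against IM, the CMT library gave -0.32 (-0.46 to -0.18). VEGFA was the only one of the 10 genes past 1.5-fold in any comparison with a ratio. These ratios were not rare in the libraries, because 9.73% of the mRNA genes tested differed at least as much as VEGFA between CM and IM and 19.2% did so between CMT and CM.

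VEGFB, a ligand of FLT1 known for its part in tissues that use fatty acids, had a level of 2205, 2558 and 1937 UQRPKM in IM, CM, and CMT pigs. CM was the highest library for VEGFB and the lowest for VEGFA. Against IM, the log2 ratio of VEGFB was 0.21 (0.15 to 0.28) for CM and -0.19 (-0.26 to -0.12) for CMT, and CMT versus CM gave -0.40 (-0.47 to -0.33). All of these stayed within 1.5-fold, although each interval lay on one side of 0.

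The ratio of VEGFA to VEGFB, which does not depend on how libraries are scaled, was 0.491, 0.225 and 0.448 in IM, CM, and CMT pigs. On the log2 scale it differed by -1.12 (-1.30 to -0.95) between CM and IM and by 0.99 (0.81 to 1.17) between CMT and CM. For CMT versus IM the interval of the difference included 0, with a value of -0.13 (-0.29 to 0.02). The balance of these 2 ligands therefore differed more than VEGFA did on its own in both comparisons that involve CM.

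VEGFC, the main ligand of lymphatic vessel growth, was measured at 136, 152 and 140.0 UQRPKM in IM, CM, and CMT pigs from 205, 218 and 206 reads. Its log2 ratios against IM were 0.16 (-0.12 to 0.44) for CM and 0.04 (-0.25 to 0.32) for CMT, and CMT versus CM gave -0.12 (-0.40 to 0.16). No difference in VEGFC was detectable at this depth.

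ANGPT1, the activating ligand of TEK, had levels of 25.2, 19.0 and 22.4 UQRPKM in IM, CM, and CMT pigs, from 39, 28 and 34 reads. ANGPT2, which endothelial cells store and release, had levels of 57.7, 69.8 and 59.6 UQRPKM, from 248, 286 and 251 reads. In CM versus IM the log2 ratio of ANGPT2 was 0.28 (0.02 to 0.53), with an exact binomial adjusted p of 0.0854 over all mRNA genes with reads, and that of ANGPT1 was -0.41 (-1.16 to 0.33). Between CMT and CM, ANGPT2 gave -0.23 (-0.48 to 0.02) and ANGPT1 gave 0.24 (-0.52 to 1.02). The ratio of ANGPT2 to ANGPT1 was 2.29, 3.68 and 2.66 in IM, CM, and CMT pigs. Its log2 difference from IM was 0.68 (-0.10 to 1.48) for CM and 0.22 (-0.54 to 0.97) for CMT, and that of CMT versus CM was -0.47 (-1.29 to 0.34), so that the few reads of ANGPT1 left each interval across 0.

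Of the receptors, KDR, the main signalling receptor of VEGFA, was measured at 721 UQRPKM in IM pigs (6460 reads), 549 in CM pigs (4688 reads) and 542 in CMT pigs (4759 reads). IM was the highest library, and CM and CMT overlapped. The log2 ratio was -0.39 (-0.45 to -0.34) in CM versus IM, -0.41 (-0.47 to -0.36) in CMT versus IM, and -0.02 (-0.08 to 0.04) in CMT versus CM. The last value turned to 0.04 when the libraries were scaled by reads on mRNA genes without the muscle and liver lists.

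FLT1, which binds VEGFA tightly and signals weakly, followed with 441, 352 and 367 UQRPKM in IM, CM, and CMT pigs, from 4400, 3346 and 3593 reads. Its log2 ratio against IM was -0.33 (-0.39 to -0.26) for CM and -0.26 (-0.33 to -0.20) for CMT, and CMT versus CM gave 0.06 (-0.01 to 0.13). Both VEGF receptors were thus highest in IM, while VEGFA was higher in CMT than in CM. KDR and FLT1 were not separated between those libraries as deposited. For FLT1 this depended on the scaling. CMT versus CM gave 0.09 when scaled by total UQRPKM of mRNA genes and 0.08 when scaled by median of ratios. Scaled by reads on mRNA genes without the muscle and liver lists, it gave 0.12. Moved by as much, the interval of FLT1 would lie above 0. The ratio of FLT1 to KDR was 0.611, 0.641 and 0.678 in IM, CM, and CMT pigs, and its log2 difference left 0 outside the interval only in CMT versus IM, at 0.15 (0.06 to 0.23).

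TEK, the receptor of the angiopoietins, had levels of 208, 178 and 217 UQRPKM in IM, CM, and CMT pigs, from 1311, 1068 and 1340 reads. CM was lowest, and the intervals of IM and CMT overlapped. Against IM, the log2 ratio of TEK was -0.23 (-0.34 to -0.11) for CM and 0.06 (-0.05 to 0.17) for CMT, and CMT versus CM gave 0.29 (0.17 to 0.40). Scaled by reads on mRNA genes without the muscle and liver lists, TEK gave 0.18 in CMT versus IM, just above that interval. The lowest library of TEK was that of VEGFA, with a smaller difference.

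TIE1, the partner receptor of TEK with no firmly known ligand of its own, was listed at 15.2 UQRPKM in IM (13 reads), 14.7 in CM (12 reads) and 0 in CMT. The limit set for a count of 0, at 3 reads, corresponds to 3.57 UQRPKM in CMT, and the two-sided exact 95% interval reached 4.39. The exact binomial adjusted p was 0.00131 for CMT versus CM and 0.00124 for CMT versus IM, on these few reads. Of 12469 mRNA genes with at least 12 reads in both IM and CM, 7 were listed at 0 in CMT. In these files a value of 0 is not always a missing transcript, since 6 of 68 genes named as ribosomal proteins were at 0 in all 3 libraries, and no fold is given for TIE1 in CMT. The length of 575 bases that went with its reads is far below that of the full TIE1 transcript, so its levels and its 0 may rest on part of the gene, and its place among the other genes is uncertain.

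**Figure D2:**
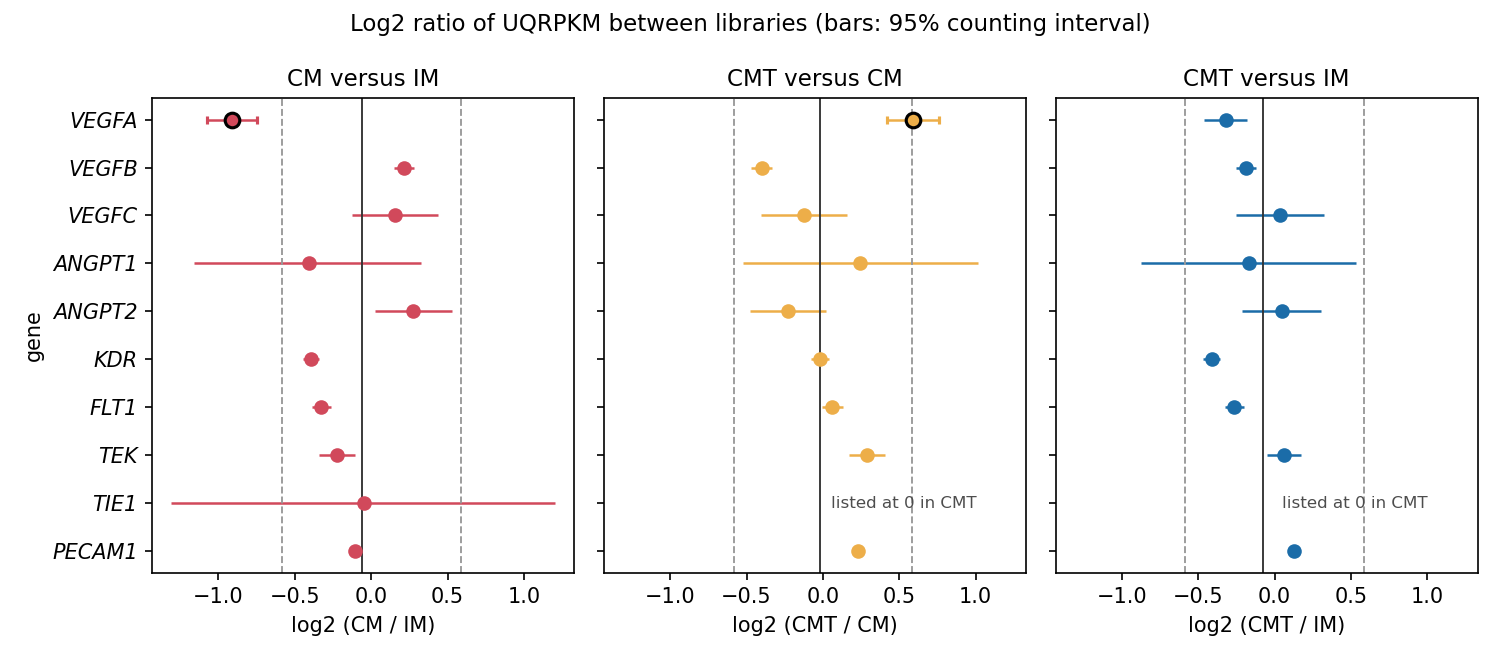
Log2 ratio of UQRPKM of each gene (horizontal axis) for the 3 pairs of libraries, with bars for the 95% counting interval, dashed lines at 1.5-fold, a solid line at the median of all mRNA genes and black rims for values past 1.5-fold. Only VEGFA has a black rim, at -0.91 (CM to IM) and at 0.59 (CMT to CM), and TIE1 has no ratio where CMT is involved.

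PECAM1 rested on 22166, 19661 and 23706 reads for IM, CM, and CMT pigs, and so had the narrowest intervals. Its log2 ratio against IM was -0.10 (-0.13 to -0.08) for CM and 0.13 (0.10 to 0.15) for CMT, and CMT versus CM gave 0.23 (0.20 to 0.26). The choice of scaling moved PECAM1 by more than these intervals. Scaled by reads on mRNA genes without the muscle and liver lists, the values were -0.04, 0.24 and 0.28, with the same signs. CMT was thus the highest library for PECAM1, in contrast to KDR and FLT1.

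Counted over the 10 genes, CM versus IM gave 0 genes higher and 1 lower at 1.5-fold, given a level of 1 UQRPKM or above in both libraries, against 8.38% and 10.4% of all mRNA genes tested. CMT versus CM gave 1 higher and 0 lower, against 9.53% and 9.97%, and CMT versus IM gave 0 in either direction, against 8.81% higher and 11.9% lower, or 20.7% together. A count of 0 or 1 among 10 genes is near what these shares give, so the genes did not stand out by number. Their median log2 ratio was -0.16, 0.06 and -0.17 in the 3 comparisons, beside -0.06, -0.02 and -0.08 for all mRNA genes. The comparisons share libraries pairwise and are not independent of each other.

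The exact binomial test on reads, which compares libraries and not conditions, called 1 gene higher (VEGFB) and 5 lower (VEGFA, KDR, FLT1, TEK and PECAM1) in CM versus IM. It called 3 higher (VEGFA, TEK and PECAM1) and 2 lower (VEGFB and TIE1) in CMT versus CM. In CMT versus IM it called 1 higher (PECAM1) and 5 lower (VEGFA, VEGFB, KDR, FLT1 and TIE1). The same test called 11.9% of all mRNA genes with reads higher and 19.5% lower for CM against IM, 12.3% and 15.6% for CMT against CM, and 11.5% and 22.9% for CMT against IM. In either direction these came to 31.4%, 27.9% and 34.4%, and to 44.6%, 37.4% and 49.2% of those with at least 100 reads in both libraries. With so many reads, a small difference between pools passes this test.

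Relative to PECAM1, taken as a marker of endothelial cells, KDR stood at 0.166, 0.136 and 0.1145 in IM, CM, and CMT pigs, and FLT1 at 0.102, 0.0871 and 0.0776. The log2 difference of this ratio was -0.29 (-0.35 to -0.23) for KDR and -0.22 (-0.29 to -0.15) for FLT1 in CM versus IM. Between CMT and CM it was -0.25 (-0.31 to -0.18) and -0.17 (-0.24 to -0.09), and between CMT and IM it was -0.54 (-0.60 to -0.48) and -0.39 (-0.46 to -0.32). For TEK the ratio to PECAM1 was 0.0479, 0.0440 and 0.0458, and its difference was separated from 0 only in CM versus IM, at -0.12 (-0.24 to -0.00176).

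These directions depended on the reference. The summed reads (not UQRPKM) of 23 other endothelial markers, in which genes with more reads weigh more, were taken in place of PECAM1. Relative to this sum, KDR changed by -0.013 from IM to CM, 0.13 from CM to CMT and 0.12 from IM to CMT on the log2 scale. For FLT1 the values were 0.054, 0.21 and 0.27 and for TEK 0.15, 0.44 and 0.59. For PECAM1 itself they were 0.28, 0.38 and 0.65. For most of these ratios, PECAM1 and the sum of the other markers thus gave opposite signs.

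**Figure D3:**
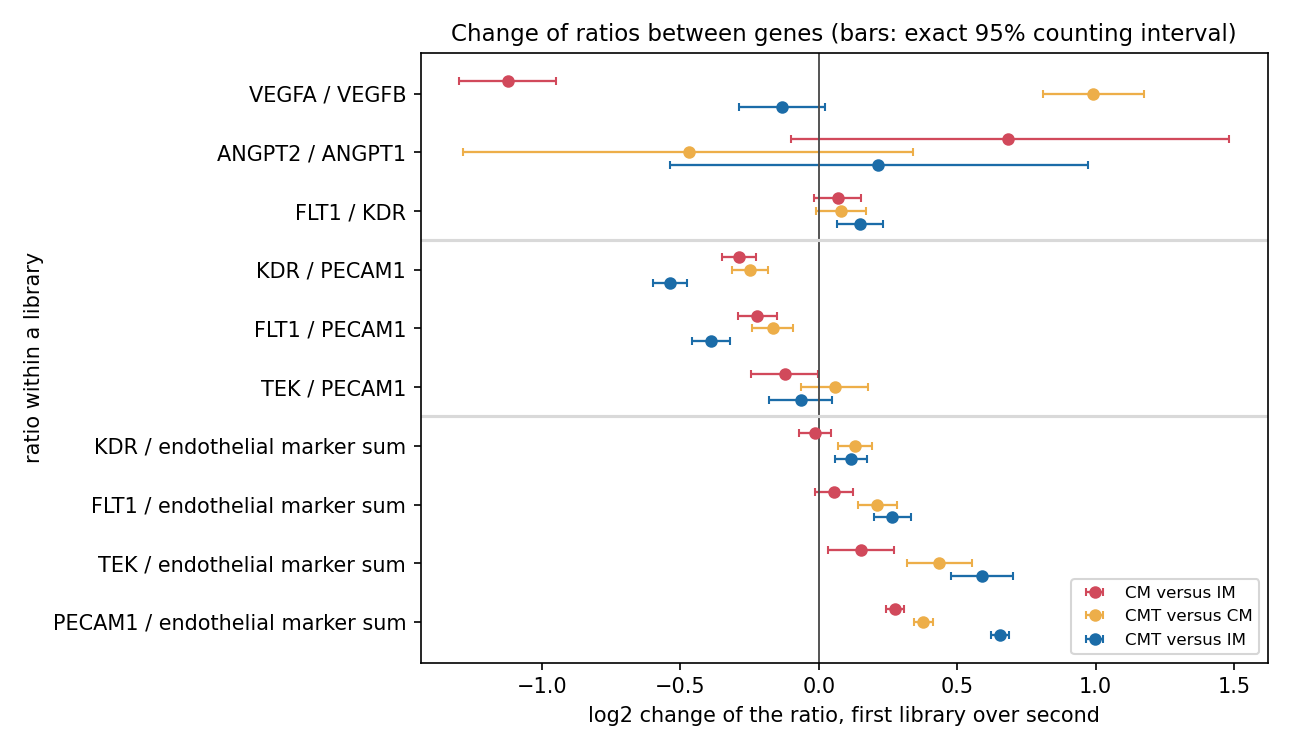
Log2 change between libraries (horizontal axis) of the ratio of 2 genes, or of a gene to the summed reads of the endothelial markers. Bars mark the exact 95% counting interval. VEGFA to VEGFB moved most, to -1.12 (CM to IM) and 0.99 (CMT to CM), and KDR and FLT1 lay below 0 against PECAM1 but near or above 0 against the marker sum.

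Other genes of the VEGF and angiopoietin systems were measured in 11 cases, and NRP2 was at 0 in all libraries. Of the 10 above 0, 0 were called higher and 2 lower in CM versus IM, with a median log2 ratio of -0.35. CMT versus CM had 1 higher and 0 lower, with a median of 0.25, and CMT versus IM had 1 higher and 0 lower, with a median of -0.15. Over all mRNA genes tested, 8.38% were called higher and 10.4% lower in CM versus IM. These shares were 9.53% and 9.97% for CMT versus CM, and 8.81% and 11.9% for CMT versus IM.

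Among the other ligands, PGF, which binds FLT1, had a level of 57.1, 45.1 and 40.8 UQRPKM in IM, CM, and CMT pigs. FIGF, the VEGFD gene that acts on FLT4 in lymphatic vessels, had a level of 103, 104 and 148 UQRPKM and a log2 ratio of 0.51 (0.30 to 0.72) in CMT versus CM. ANGPT4, another angiopoietin, had a level of 37.5, 24.2 and 28.9 UQRPKM in IM, CM, and CMT pigs. Its log2 ratio of -0.63 (-0.91 to -0.35) in CM versus IM was past 1.5-fold.

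The angiopoietin-like proteins do not act on TEK. ANGPTL4, an inhibitor of lipoprotein lipase, was at 5109, 3239 and 3853 UQRPKM in IM, CM, and CMT pigs, and gave a log2 ratio of -0.66 (-0.70 to -0.62) between CM and IM. ANGPTL1 was at 179, 174 and 336 UQRPKM, with log2 ratios of 0.95 (0.81 to 1.095) against CM and 0.91 (0.77 to 1.05) against IM in the CMT library. ANGPTL2, an adipose secreted factor, was at 1362, 1691 and 1269 UQRPKM and within 1.5-fold throughout.

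Of the receptors and signalling proteins, FLT4, the receptor of VEGFC, was at 30.3, 21.65 and 29.5 UQRPKM in IM, CM, and CMT pigs. NRP1, a co-receptor of KDR, was at 482, 355 and 434 UQRPKM, with CM lowest for both genes. PTPRB, a phosphatase that acts on TEK, was at 333, 260.4 and 256 UQRPKM, with IM highest as for KDR and FLT1. PLCG1, an enzyme downstream of KDR, was at 204, 183 and 183 UQRPKM. FLT4, NRP1, PTPRB and PLCG1 each had a log2 ratio below 0 and within 1.5-fold in CM versus IM, at -0.48, -0.44, -0.36 and -0.16.

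Of the endothelial marker list, 26 genes were measured, of which S1PR1, SHANK3 and AQP1 were at 0 in all libraries. The sum of the list was 22807, 18110 and 16172 UQRPKM in IM, CM, and CMT pigs, highest in IM as for KDR and FLT1 but lowest in CMT, where PECAM1 was highest. In CM versus IM, 0 of 23 genes were called higher and 4 lower, with a median log2 ratio of -0.25, and 22 of the 23 ratios were below 0. CMT versus CM had 1 higher and 2 lower, with a median of -0.12, and CMT versus IM had 0 higher and 8 lower, with a median of -0.43. Of all mRNA genes, 10.4% were called lower in the first comparison, 9.97% in the second and 11.9% in the third, and the medians were -0.06, -0.02 and -0.08. The list was not uniform, because CALCRL was higher in CM than in IM at 0.26 and EMCN higher in CMT than in IM at 0.42, both picked out after their values were seen. The part of the summed marker level in the ratios of KDR and FLT1 was not tested.

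MMRN2, an extracellular matrix protein of endothelial cells, differed most, with 460, 293 and 130.5 UQRPKM in IM, CM, and CMT pigs. Its log2 ratio was -0.65 (-0.74 to -0.57) between CM and IM and -1.17 (-1.28 to -1.05) between CMT and CM. RASIP1, needed for vessel lumens, was at 419, 246 and 196 UQRPKM, with a log2 ratio of -0.77 (-0.87 to -0.67) in CM versus IM. The other markers past 1.5-fold in the first comparisons, ESAM and ARHGEF15 lower in CM than in IM at -1.08 and -0.65, and EMCN higher and GPIHBP1 lower in CMT than in CM at 0.64 and -0.67, were picked out after their values were seen.

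Lymphatic endothelial markers, 6 genes with FLT4 among them, summed to 678, 615 and 960 UQRPKM in IM, CM, and CMT pigs, so CMT was the highest library. In CM versus IM 0 were higher and 0 lower, with a median of -0.09, beside 8.38% and 10.4% of all mRNA genes. Between CMT and CM all 6 log2 ratios were above 0, between 0.40 and 0.92, and 1 was called higher, beside 9.53% of all mRNA genes. CMT versus IM had 3 called higher (PROX1, PDPN and CCL21), with a median of 0.54, beside 8.81% of all mRNA genes. Mesothelial markers were also higher in CMT, with 5 of 5 tested genes called higher in CMT versus IM and a median of 2.58. The lists differed in CM versus IM, where 4 of 5 tested mesothelial genes were called higher and 0 of the lymphatic list. PDPN is also a gene of mesothelial cells. The part of mesothelial cells in the lymphatic values was not tested. CCL21, a chemokine of lymphatic vessels, was at 275, 220 and 417 UQRPKM, with a log2 ratio of 0.92 (0.62 to 1.23) in CMT versus CM. PROX1, the transcription factor that defines lymphatic endothelium, was at 1.14, 1.63 and 2.33 UQRPKM from 14, 19 and 28 reads. VEGFC, which is not in the list, did not share this pattern, whereas FIGF, also not in the list, was higher in CMT than in CM. FLT4 was higher in CMT than in CM too, but it is itself a gene of the list. In CMT versus IM it was not separated, at -0.04 (-0.29 to 0.22).

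**Figure D4:**
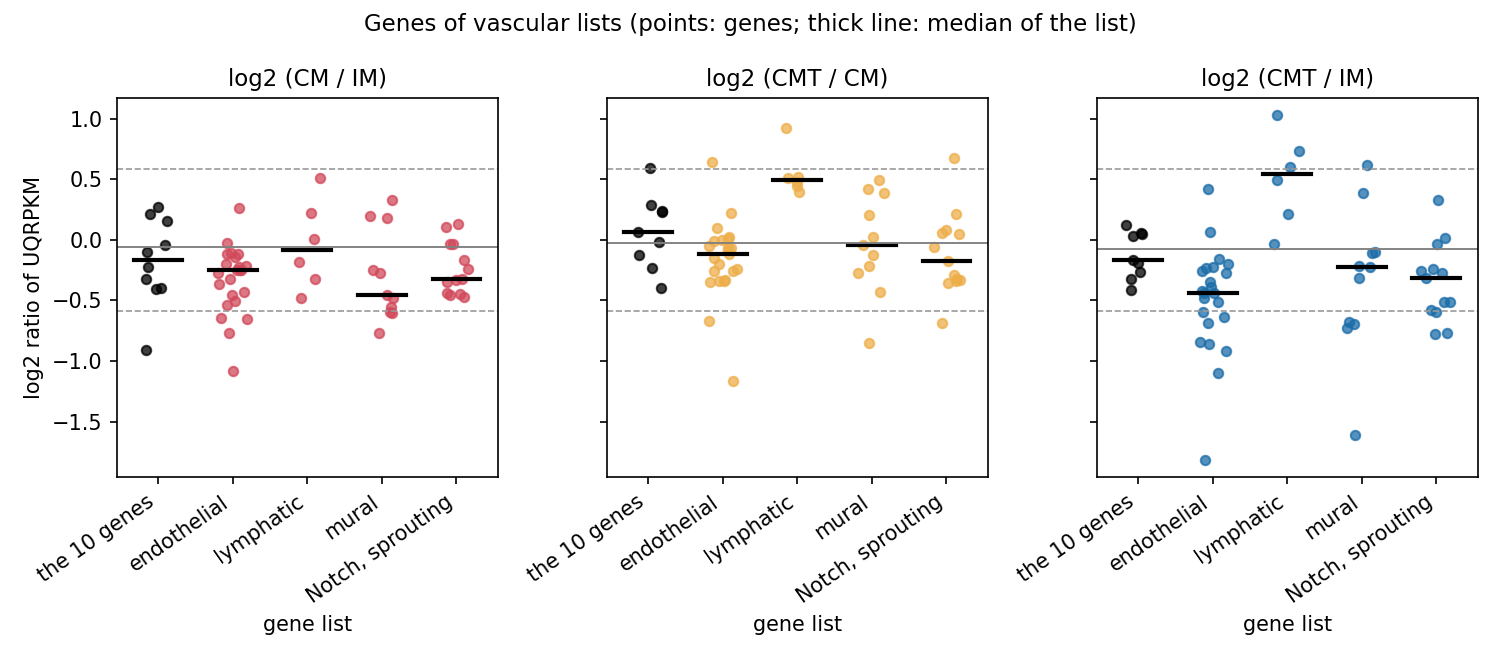
Log2 ratio of UQRPKM (vertical axis) of single genes (points) in the 10 genes described and in lists of endothelial, lymphatic, mural cell, and Notch and sprouting genes, with thick lines for list medians, a grey line for the median of all mRNA genes and dashed lines at 1.5-fold. Endothelial medians lay at -0.25, -0.12 and -0.43 in the 3 panels, and the lymphatic median at -0.09, 0.50 and 0.54.

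Mural cell markers, of the pericytes and smooth muscle that wrap vessels, were above 0 for 11 genes. In CM versus IM 0 were called higher and 3 lower (CNN1, KCNJ8 and HIGD1B), with a median of -0.45, beside 10.4% of all mRNA genes called lower. CMT versus CM had 0 higher and 1 lower, with a median of -0.04, and CMT versus IM had 1 higher and 4 lower, with a median of -0.22. Of all mRNA genes, 9.97% were called lower in CMT versus CM, and 8.81% higher and 11.9% lower in CMT versus IM. MCAM, an adhesion molecule of these cells, was at 550.4, 402 and 333 UQRPKM in IM, CM, and CMT pigs. HIGD1B, a pericyte gene, was at 184, 108 and 60.2 UQRPKM from 25, 14 and 8 reads.

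Genes of Notch signalling, which restrains sprouting under VEGFA, and other genes of sprouting vessels such as APLN and EFNB2 formed 1 list, of which 13 genes were above 0. In CM versus IM 0 were higher and 0 lower, with a median of -0.32 and 11 ratios below 0. CMT versus CM had 1 higher (EFNB2) and 1 lower (DLL1), and CMT versus IM had 0 higher and 3 lower (NOTCH4, NRARP and APLN). Of all mRNA genes tested, 8.38% were called higher and 10.4% lower in CM versus IM, with a median of -0.06. The shares were 9.53% and 9.97% for CMT versus CM, and 8.81% and 11.9% for CMT versus IM. NRARP, a feedback inhibitor of Notch, was at 95.7, 70.25 and 55.9 UQRPKM, and APLN, a peptide of sprouting endothelium, at 79.8, 58.7 and 46.9 UQRPKM. Both were highest in IM, and their intervals for CMT versus CM included 0, unlike that of VEGFA.

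VEGFA is a target of hypoxia-inducible factors, so genes of the response to hypoxia were examined beside it. The list held not only targets but also HIF1A, EPAS1 and ARNT, which encode such factors, and their regulator VHL. Of its 17 measured genes, 2 were called higher (PDK1 and EGLN3) and 1 lower (EPAS1) between CM and IM. CMT versus CM had 1 higher (SLC2A1) and 1 lower (EGLN3), and CMT versus IM had 2 higher (PDK1 and P4HA1) and 1 lower (EPAS1). The intervals of EGLN3 included 0 in both comparisons that called it, at -0.18 to 2.26 in CM versus IM and -1.73 to 0.51 in CMT versus CM. The counts of this list were near the shares of all mRNA genes, 8.38% higher and 10.4% lower in CM versus IM. For CMT versus CM the shares were 9.53% and 9.97%, and for CMT versus IM 8.81% and 11.9%. The medians of the list were 0.06, 0.02 and 0.10, beside -0.06, -0.02 and -0.08 for all mRNA genes. P4HA1, a collagen hydroxylase, was at 183, 204 and 304 UQRPKM, and EGLN3, an oxygen sensor, at 2.10, 4.18 and 2.78 UQRPKM from 10, 19 and 13 reads. Neither was lowest in CM as VEGFA was, but 7 of the 17 genes were, or 41.2%, beside 33.5% of all mRNA genes with at least 1 UQRPKM in every library. For 3 of them, picked out after their values were seen, both intervals against CM left 0 outside. These were NDRG1 (551, 443 and 542 UQRPKM), the glycolytic enzyme gene LDHA (556, 493 and 559) and PFKFB3 (906, 742 and 874), a regulator of glycolysis. The share of all mRNA genes that met this interval condition was not computed, so the count of 3 cannot be set against it.

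Secreted inhibitors and other growth factors of vessels were measured for 12 genes, of which SERPINF1 and ANG were at 0 in all libraries. Of the 10 above 0, 2 were called higher (LEP and COL18A1) and 2 lower (FGF2 and ADAMTS1) between CM and IM, beside 8.38% and 10.4% of all mRNA genes. CMT versus CM had 1 higher (THBS1) and 2 lower (LEP and COL18A1), beside 9.53% and 9.97%. CMT versus IM had 1 higher (THBS1) and 1 lower (ADAMTS1), beside 8.81% and 11.9%. LEP, the leptin gene of adipocytes, was at 167, 502 and 156 UQRPKM in IM, CM, and CMT pigs, with log2 ratios of 1.59 (1.45 to 1.73) for CM against IM and -1.69 (-1.83 to -1.54) for CMT against CM. LEP was thus highest in the library where VEGFA was lowest. THBS1, an inhibitor of vessel growth, was at 257, 195 and 469 UQRPKM, with a log2 ratio of 1.27 (1.18 to 1.35) in CMT versus CM.

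Other cell types of fat also differed in summed level. The adipocyte list summed to 150836, 140358 and 120239 UQRPKM in IM, CM, and CMT pigs, with CIDEA at 0 in all 3, and the macrophage list to 7694, 6504 and 6109, with CD163 at 0 in all 3. The macrophage sum did not describe every gene of its list, because 5 log2 ratios were above 0 and 4 below in CM versus IM, with a median of 0.02. LOC100520753 (CD68), at 17.2, 42.9 and 22.2 UQRPKM, and EMR1, at 45.6, 93.6 and 30.6, were highest in CM. Both were picked out after their values were seen. The T cell list summed to 1707, 1433 and 1545, of which CD247 alone, picked out after its values were seen, gave 1378, 1172 and 1205. The erythroid list summed to 4593, 4238 and 2364, and the mesothelial list to 126, 245 and 684, with LRRN4 at 0 in all 3. The part of these differences in the values of the 10 genes and of the vascular lists was not tested.

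The genes whose pattern over the 3 libraries was most like that of VEGFA, by the largest difference of their log2 ratios over the 3 comparisons among 8540 mRNA genes with at least 100 reads in every library, were OLFML2B, BCL9 and PTGER3. OLFML2B differed from VEGFA by at most 0.01 and was at 95.6, 51.2 and 76.7 UQRPKM in IM, CM, and CMT pigs. For VEGFA 7 genes lay within 0.1, whereas for PECAM1, with WDR82, KBTBD2 and NEBL nearest, 309 did.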

How the data were processed

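RNA-Seq of 3 pooled libraries, 1 per group, was analysed. The authors aligned filtered reads to the Sscrofa 10.2 genome by MapSplice. The deposited unit is UQRPKM, an RPKM value in which the upper quartile of a library replaces its total. The counting tool, the annotation and the use of strand are not given in the sources used here.

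Reads were recovered as the smallest whole numbers that fit the 3 values of a gene, with upper quartiles of 149, 142 and 146 for IM, CM and CMT. Whole reads, within a relative tolerance of 1e-08, were found for 100% of the 20838 genes above 0. Of these reads, 14844063, 13582288 and 13449107 lay on mRNA genes.

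A gene was called when it differed at least 1.5-fold and reached 1 UQRPKM in both libraries, the study's criteria without its test, over all mRNA genes. Log2 ratios used no pseudocount. Intervals were Clopper-Pearson, or Fisher's conditional odds ratio for ratios of genes (20 such changes). The exact binomial test was two-sided with Benjamini-Hochberg adjustment (limit 0.05). Scripts were tested on simulated data. Python 3.11.15, numpy 2.4.6, pandas 2.3.3, scipy 1.17.1, statsmodels 0.14.6 and matplotlib 3.10.9 were used.

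The 10 genes and all lists were chosen with earlier results of these data known. Of 177 listed genes, 148 were matched by symbol, 9 by RefSeq gene ID and 2 by synonym, and 18 had no mRNA entry. Named were the 10 genes, every measured gene of the VEGF and angiopoietin list, the 2 genes of each vascular, hypoxia and growth factor list with the largest ratio among those above 0 in every library and with at least 30 reads in all, and the 3 genes most like VEGFA and PECAM1. Other list genes named because they passed 1.5-fold, or singled out in the text, were chosen after their values were seen. Alternatives were other scalings, a pseudocount, no minimum, a fold of 2, both tests, and another endothelial reference. Gene positions and sequences were not used here.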

Additional observations from a re-analysis of the deposited data

How the results depend on the processing

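Each count of genes past 1.5-fold was recomputed under 8 alternatives. These were 3 other scalings, a pseudocount of 1, no minimum level, a fold of 2, the exact binomial test and the MA-plot formula of DEGSeq. Both tests were required on top of 1.5-fold, so they could remove genes from a count but not add any. With a fold of 2 the count of the 10 genes was 0 for CM against IM and 0 for CMT against CM. The other alternatives left all counts at 1.5-fold as reported. Without the fold, the exact binomial test called more of the 10 genes in every comparison, as given above. Of 112 recomputed log2 ratios of the 10 genes under the other scalings and the pseudocount, 97 stayed within their counting interval and 15 did not, the largest shift was 0.11, and 4 changed sign (KDR in CMT versus CM under 2 scalings and TIE1 in CM versus IM under 2 scalings), none of them past 1.5-fold. The summed reads of the endothelial markers were also taken in place of PECAM1 as reference. The log2 change (IM to CM, then CM to CMT, then IM to CMT) was then -0.013, 0.13 and 0.12 for KDR, 0.054, 0.21 and 0.27 for FLT1, and 0.15, 0.44 and 0.59 for TEK. All of these turned sign against the PECAM1 reference except KDR in CM versus IM, whose interval then included 0, and TEK in CMT versus CM, whose interval then left 0 outside. The cause was not tested. No replicate could be left out with 1 library per group. No paired analysis was possible because each group had 1 pooled library. Recovered reads are the smallest that fit, so some may be too low by a common factor, which widens the intervals. Depth limits ANGPT1, TIE1, PROX1, HIGD1B and EGLN3, with under 40 reads in each library.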
